A study of Mus musculus with 40 samples.

Results

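The amygdala was compared with the prefrontal cortex on 16 microarrays, 8 for each region, out of the 40 arrays of the series. The arrays were chosen by the region named in their labels, and no measured value entered that choice. The study measured 5 brain regions of mice carrying either alanine or threonine at residue 92 of the protein made by Dio2. That protein is a deiodinase that activates thyroid hormone by turning thyroxine into triiodothyronine. The groups used here were Ala amygdala (arrays 1 to 4), Thr amygdala (arrays 5 to 8), Ala prefrontal cortex (arrays 25 to 28) and Thr prefrontal cortex (arrays 29 to 32). The genotypes are labelled Ala92D2HY and Thr92D2HY. All 4 groups shared a background strain spelled C56BL/6 in the labels, an age of 8 to 10 weeks, a chow diet and housing at room temperature, and no drug or other treatment is named for any of them. Which animal gave which array is not stated. The p-values therefore describe only how these arrays vary among themselves, which may be technical variation. Precision is limited by there being 8 arrays per region.

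The amygdala is a group of nuclei below the cortex that links sensory input, much of it olfactory, to emotional and autonomic responses. It holds cortex-like nuclei of excitatory neurons and striatum-like nuclei of GABAergic neurons rich in neuropeptides. The prefrontal cortex is a layered sheet of excitatory neurons and interneurons that serves working memory and the control of behaviour. It lies close to the olfactory bulb at the front of the rodent brain.

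Levels are log2 signals, and a difference is the amygdala mean minus the prefrontal cortex mean on that scale, with genotype in the model and the standard error (SE) of the limma fit. A gene was called when its Benjamini-Hochberg adjusted p was under 0.05 and its absolute difference was at least 1. Of 19505 named genes, 14658 were bright enough to be tested. Negative control rows had array medians between 5.73 and 6.02, and a level in or below that range is close to the background of the array. Array medians over all rows lay between 6.12 and 6.25. Arrays of the same region correlated at r between 0.977 and 0.991 across genes, and arrays of different regions at r between 0.964 and 0.985.

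Of the 14658 genes, 571 (3.9%) were called, 256 (1.75%) higher and 315 (2.15%) lower in the amygdala. The last 2 shares are the background for the counts of every gene list below. Differences of at least 2 were found for 36 genes on the higher side and 70 on the lower side. All 8 amygdala arrays lay on one side of all 8 prefrontal cortex arrays for 415 genes (2.83% of all tested). Of these, 113 were called higher, 139 were called lower and the rest were not called. In 69 of the genes called higher the prefrontal cortex mean was in or below the negative control range, and in 85 of those called lower the amygdala mean was. In 23 and 21 of these both means were, so neither side was a level above background, and in the others the difference is against background. In tissue RNA, fewer cells of a type and less RNA per cell cannot be told apart.

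**Figure D1:**
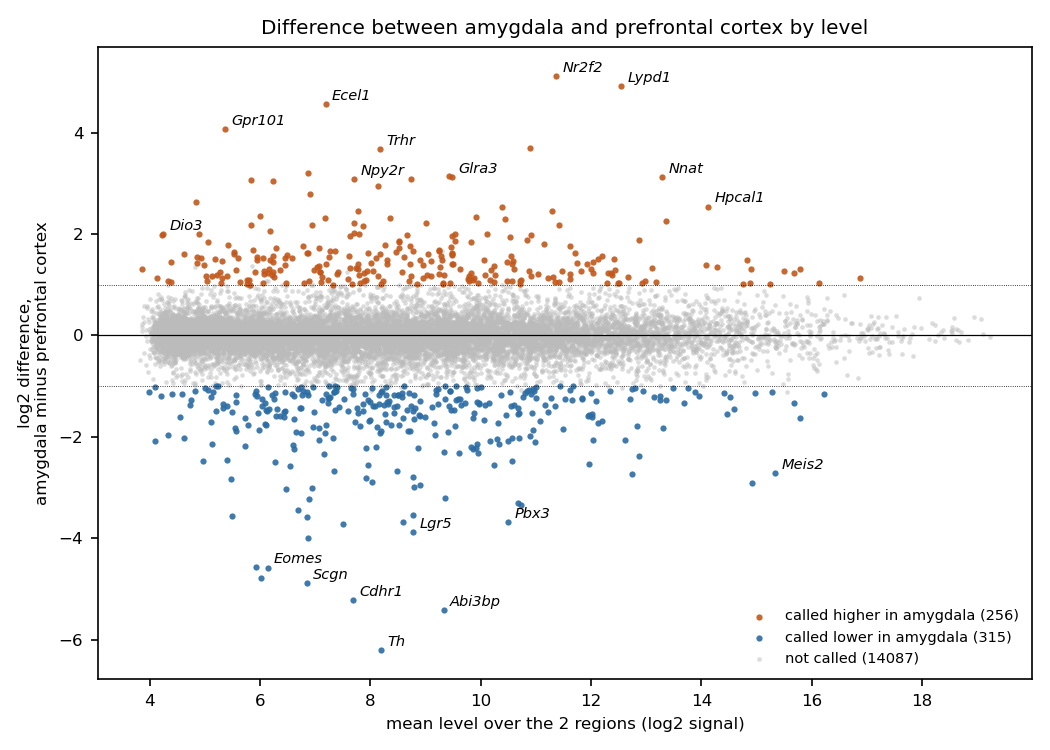
Log2 difference, amygdala minus prefrontal cortex, against the mean level of both regions for each of the 14658 genes tested. Orange points are the 256 genes called higher in the amygdala, blue points the 315 called lower and grey points the rest, with dotted lines at a difference of 1 in either direction. Nr2f2 and Lypd1 stand at the top and Th, Abi3bp and Cdhr1 at the bottom.

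Markers of both labelled tissues are given first. All marker lists were chosen with earlier results of these data known. The amygdala list holds Nr2f2, Lypd1, Trhr and Otof, which are among the genes with the largest positive differences here. Its counts and means are therefore partly fixed in advance and are not an independent check of the tissue. In the list of amygdala markers 8 of 19 tested genes were called higher and 2 lower, with a median difference of 0.81, against -0.00064 over all genes. The mean level of that list was between 8.85 and 10.36 on amygdala arrays and between 8.25 and 8.52 on prefrontal cortex arrays, so the regions did not overlap. Markers of cortical layers did not separate the regions in the same way. Among 16 upper layer markers 3 were called higher and 3 lower, and among 21 deep layer markers 2 were higher and 3 lower.

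Olfactory bulb markers were far lower in the amygdala arrays and high in the prefrontal cortex arrays. Of 20 tested markers 14 were called lower, the other 6 were not called, and the median difference was -2.01. This list holds Th, Cdhr1, Scgn, Eomes and Pbx3, which are among the genes with the largest negative differences here. Its counts and means are therefore partly fixed in advance as well, and are not an independent check. The mean of the list was between 6.24 and 6.88 on amygdala arrays, against a lowest value of 7.59 (Ala array 26), a median of 8.77 and a highest value of 10.06 (Ala array 27) on prefrontal cortex arrays. The spread within the prefrontal cortex was therefore wider than that within the amygdala. In the amygdala Th, Cdhr1, Scgn and Eomes had means below the negative controls, and levels near background have little room to vary. Neuroblast and neurogenesis genes, which mark the young neurons that migrate to the bulb, had 7 of 16 called lower and 1 higher. Among the 8 prefrontal cortex arrays, 131 of the 301 genes called lower that are not on the bulb list (43.5%) followed the mean of the bulb markers at a Pearson r of at least 0.8. The same held for 4.21% of all genes and 2.73% of those called higher. An r of -0.8 or lower was found for 19 of the 256 genes called higher and 367 of 14638 genes in all. These are descriptions over 8 arrays that share the marker mean, and the part of bulb transcripts in the result was not tested. With the 2 prefrontal cortex arrays highest in bulb markers left out (Ala array 27 and Thr array 32), 14 of the 20 markers were called lower. That setting was added once the data had been seen.

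Markers of other neighbouring tissues stood apart on single arrays. Ala amygdala array 1 had a mean of 11.24 for markers of striatal medium spiny neurons, against 8.39 to 9.45 on the other amygdala arrays and 8.26 to 8.66 on the prefrontal cortex arrays. It was also the lowest amygdala array for the amygdala markers, at 8.85. Ala amygdala array 2 had the highest means of choroid plexus markers (7.94) and hippocampus markers (9.55). Hippocampus markers were called higher for 5 of 14 genes and lower for 2, hypothalamus markers higher for 5 of 15 and choroid plexus markers higher for 2 of 11, while 3 of 16 striatal markers were higher. With arrays 1 and 2 left out these counts were 5, 2, 4, 2 and 2, in the same order, and 687 genes were called in all. Without prefrontal cortex arrays 27 and 32, 1 striatal and 1 choroid plexus marker were higher. Over all genes 1.75% were called higher and 2.15% lower. The hypothalamus list averaged 5.10 to 6.13 on amygdala arrays and 4.92 to 5.12 on prefrontal cortex arrays. The choroid plexus list averaged 5.37 to 7.94 on amygdala arrays and 5.12 to 6.20 on prefrontal cortex arrays. Most of these list means were in, below or close to the negative control range. The part of these tissues in the single results was not tested.

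**Figure D2:**
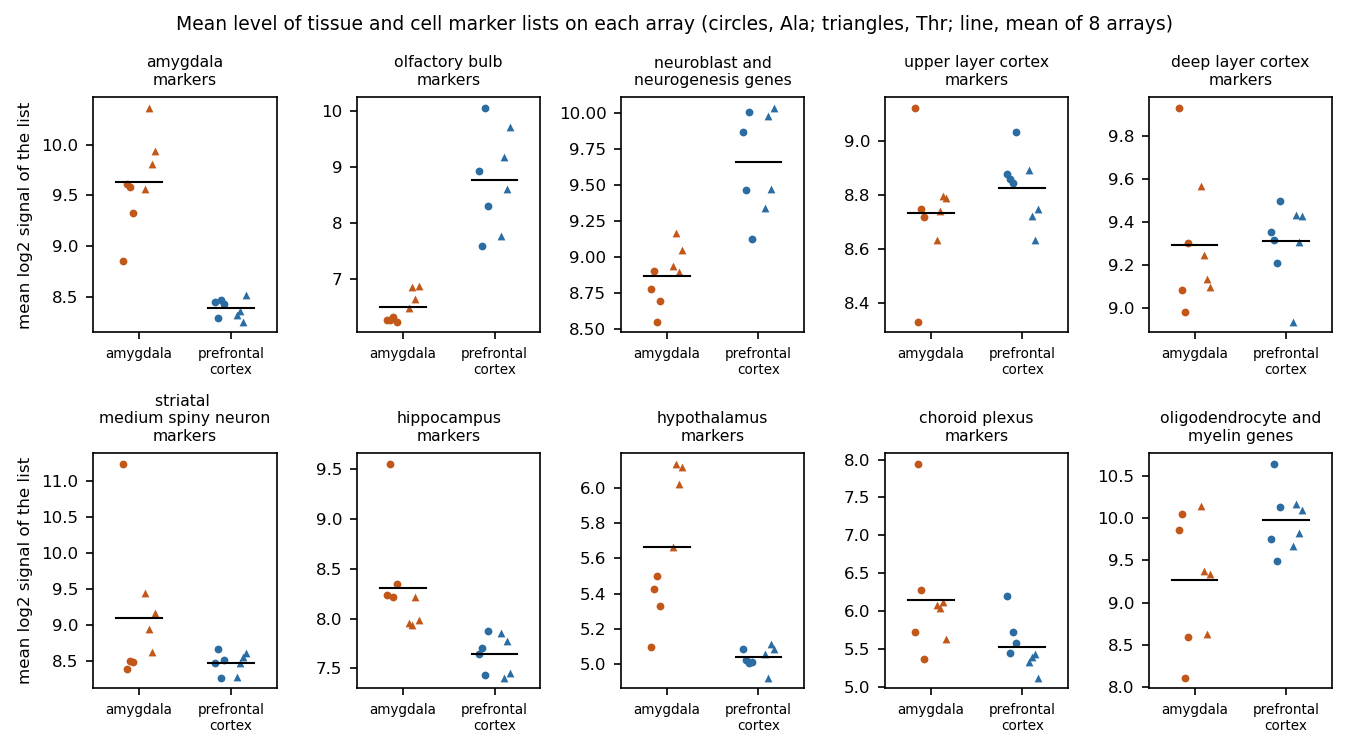
Mean log2 signal of 10 lists of tissue and cell markers on each amygdala array (left) and each prefrontal cortex array (right), with circles for Ala, triangles for Thr and a line at the mean of 8 arrays; the vertical scale differs between panels. Olfactory bulb markers lie between 6.24 and 6.88 on amygdala arrays and between 7.59 and 10.06 on prefrontal cortex arrays, and 1 amygdala array stands alone at 11.24 for striatal markers.

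The genes that most exceeded the prefrontal cortex level in the amygdala encode a nuclear receptor, synaptic membrane proteins and receptors for peptides and glycine. Nr2f2 (also called COUP-TFII), on chromosome 7, encodes an orphan nuclear receptor that patterns the caudal forebrain. Its level was 11.30, 14.24 and 15.07 (lowest, median, highest) on amygdala arrays and 7.77, 8.83 and 10.14 on prefrontal cortex arrays. The regions did not overlap, Ala amygdala array 1 being the lowest of its region, and the difference was 5.12 ± 0.39 (SE, n = 8 arrays per region, limma adjusted p = 5.91e-08), a 34.8-fold higher level. Lypd1, a membrane-anchored modulator of nicotinic receptors encoded on chromosome 1, had levels of 13.85, 15.03 and 15.84 in the amygdala and 8.18, 10.27 and 11.57 in the prefrontal cortex. All amygdala arrays were again above all others, by a mean of 4.91 ± 0.32 (limma adjusted p = 6.51e-09).

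Several receptors followed. Trhr, the receptor of thyrotropin-releasing hormone, had levels of 7.64, 10.32 and 11.66 in the amygdala and 5.82, 6.21 and 7.29 in the prefrontal cortex, so the lowest amygdala array was only just above the highest prefrontal one. The difference was 3.67 ± 0.43 (limma adjusted p = 7.23e-06). Glra3, a glycine receptor subunit, was at 9.56, 11.27 and 12.20 in the amygdala and 6.55, 8.23 and 8.92 in the prefrontal cortex. It differed by 3.12 ± 0.30. Npy2r, a receptor of neuropeptide Y, was at 7.64, 9.63 and 10.25 in the amygdala and 5.41, 6.23 and 6.86 in the prefrontal cortex. It differed by 3.08 ± 0.33, and neither receptor showed any overlap between regions.

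Gpr101, an orphan receptor encoded on the X chromosome, Gpr39, a zinc-sensing receptor, and Ecel1, a membrane metalloprotease, rose by 4.07 ± 0.45, 3.06 ± 0.31 and 4.56 ± 0.37. Their prefrontal cortex means of 3.34, 4.30 and 4.91 were all below the negative controls, so these sizes are against background. Nnat, the imprinted gene of neuronatin, a small membrane protein of the endoplasmic reticulum, averaged 14.85 ± 0.94 in the amygdala and 11.73 ± 0.51 in the prefrontal cortex (SD, n = 8). It was the brightest of the 12 genes with the largest positive differences after Lypd1. The other 3 of those 12 were Arhgap6, a GTPase-activating protein gene (3.14 ± 0.28), Aloxe3, an epidermal lipoxygenase gene (3.08 ± 0.35), and Otof, which encodes the calcium sensor otoferlin (2.80 ± 0.22, against a prefrontal cortex mean of 5.51 that was below the negative controls). Among genes with a mean above 8 in both regions, Vat1l, Sowaha and Doc2b were higher by 2.29, 1.94 and 2.33, and Doc2b encodes a calcium sensor of vesicle release.

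**Figure D3:**
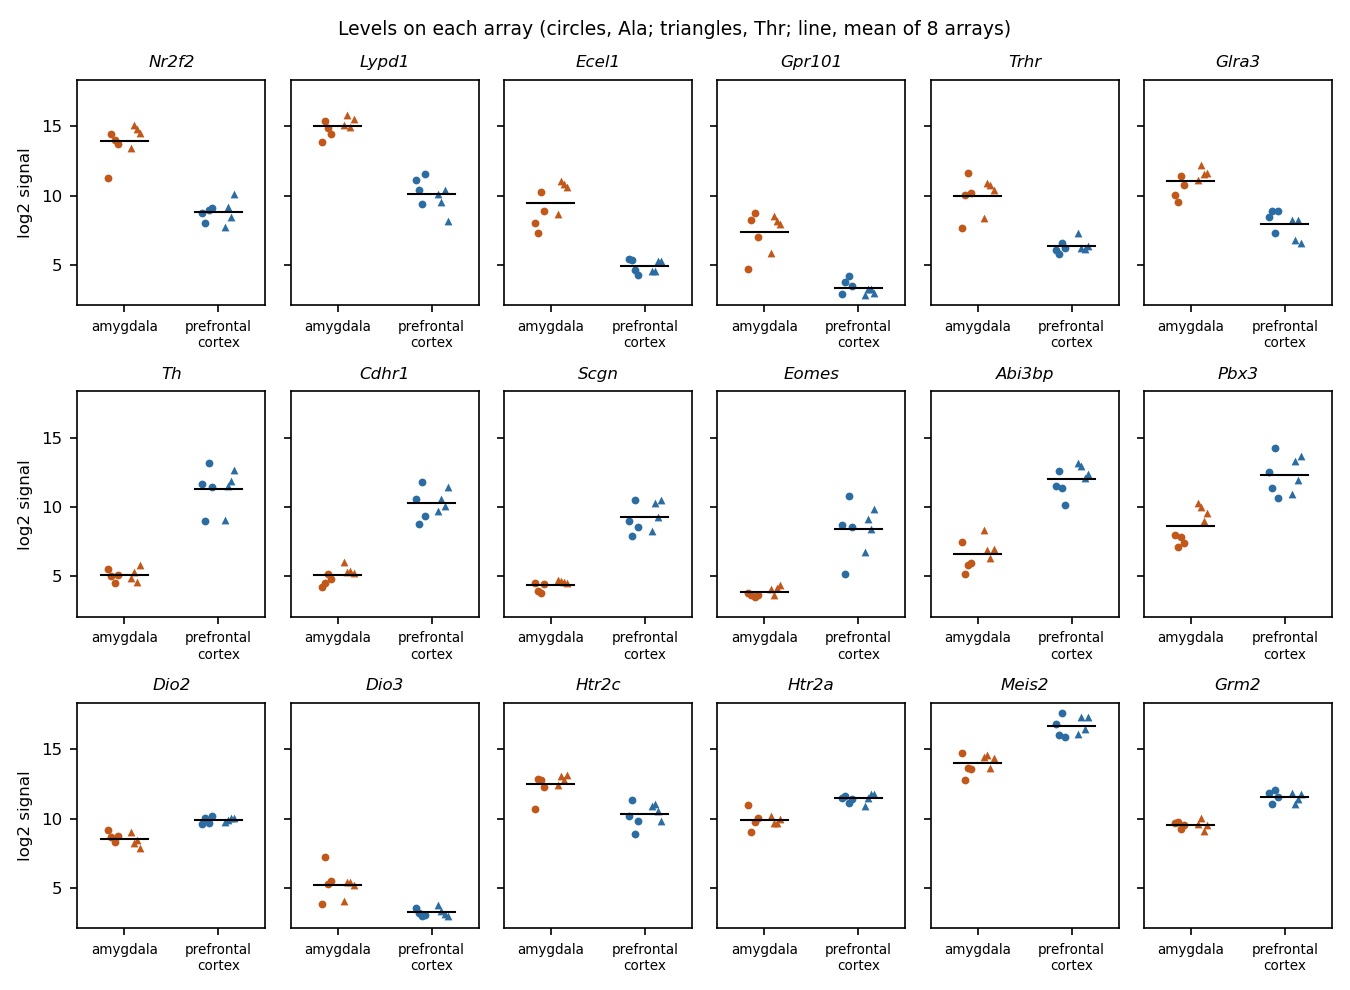
Log2 signal of 18 genes on each amygdala array (left in each panel) and each prefrontal cortex array (right), with circles for Ala, triangles for Thr and a line at the mean of 8 arrays. All panels share 1 vertical scale. The top row holds genes called higher in the amygdala, the middle row genes called lower, and the bottom row genes of thyroid hormone metabolism, serotonin receptors, Meis2 and Grm2.

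Of the 12 genes with the largest negative differences, 5 are on the list of olfactory bulb markers (Th, Cdhr1, Scgn, Eomes and Pbx3). That list was chosen with earlier results of these data known, so this count is partly fixed in advance. Th, tyrosine hydroxylase, the rate-limiting enzyme of catecholamine synthesis, is made in dopaminergic neurons of the bulb. It was at 4.49, 5.04 and 5.82 (lowest, median, highest) in the amygdala, around or below the negative controls, and at 8.98, 11.60 and 13.18 in the prefrontal cortex. The regions did not overlap and the difference was -6.21 ± 0.48 (limma adjusted p = 6.8e-08). Cdhr1, a protocadherin of bulb projection neurons and photoreceptors, was at 4.26, 5.19 and 6.01 in the amygdala and 8.79, 10.33 and 11.81 in the prefrontal cortex. It differed by -5.22 ± 0.34. On the prefrontal cortex arrays Th was lowest on Ala array 26 and highest on Ala array 27, the arrays with the lowest and highest mean of bulb markers.

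Scgn, the calcium-binding protein secretagogin, Eomes, a transcription factor of bulb projection neurons, and S100a5, a calcium-binding protein gene, differed by -4.89 ± 0.32, -4.58 ± 0.53 and -3.99 ± 0.58. Cpa6, a carboxypeptidase gene, Frmd7 and Vipr2, a receptor of vasoactive intestinal peptide, differed by -4.78, -4.57 and -3.59. The amygdala means of these 6 genes were below the negative controls. Lgr5, a receptor of R-spondins, Syt6, a synaptotagmin gene, and Pbx3, a homeobox gene, were above the negative controls in both regions and differed by -3.88, -3.67 and -3.69. All 9 of these genes had r of at least 0.8 with the bulb marker mean among the prefrontal cortex arrays. Scgn, Eomes and Pbx3 are on the bulb list, and a gene on that list was left out of the mean for its own r. Abi3bp, an extracellular matrix protein gene on chromosome 16, did not reach that r. It was at 5.18, 6.59 and 8.35 in the amygdala and 10.14, 12.26 and 13.18 in the prefrontal cortex, without overlap, and differed by -5.42 ± 0.35 (limma adjusted p = 6.51e-09).

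Among genes with a mean above 8 in both regions, Grm2, Pcp4l1, Gprc5b, Tenm3 and Inpp5j were lower in the amygdala by the smallest p. Grm2, the metabotropic glutamate receptor mGluR2 found on presynaptic terminals, was at 9.10, 9.58 and 10.07 in the amygdala and 11.05, 11.65 and 12.06 in the prefrontal cortex. The regions did not overlap, and the difference was -2.01 ± 0.17 (limma adjusted p = 1.65e-07). Tenm3, a teneurin that helps match synaptic partners, differed by -1.98 ± 0.20, and neither gene followed the bulb markers at that r. Gprc5b and Inpp5j, at -2.15 and -3.30, did.

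Transcription factors that mark brain regions fell into opposite sets. Of 44 tested, 4 were called higher and 13 lower, and their median difference was -0.30. Besides Nr2f2, its relative Nr2f1 rose by 1.09 ± 0.16, and the LIM homeobox genes Lhx2 and Lhx9 by 1.40 ± 0.17 and 2.00 ± 0.33. Lhx9 had an amygdala mean of 5.89, within the negative control range, so that difference is close to background on both sides. Among those called lower were Dlx1 and Dlx2, which direct the fate of GABAergic neurons, Sp8, Zic1 and Meis2, with differences of -3.20, -2.88, -3.57, -2.56 and -2.72. Each of these 5 had r of at least 0.8 with the bulb marker mean. Dlx2 and Sp8 are on the bulb list, and each was left out of the mean for its own r. The amygdala mean of Sp8 was below the negative controls.

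Meis2 and Tshz1 are also on the amygdala marker list and moved against its name. Meis2 is a homeobox gene of the striatum and of bulb interneurons. It was at 12.79, 14.01 and 14.76 in the amygdala, a high level, and at 15.91, 16.63 and 17.61 in the prefrontal cortex. Tshz1, a zinc finger gene of intercalated amygdala cells and of migrating bulb neurons, was at 8.25, 8.71 and 9.86 in the amygdala and 9.97, 10.91 and 12.64 in the prefrontal cortex. Neither overlapped, the differences were -2.72 ± 0.27 and -2.32 ± 0.32, and both followed the bulb marker mean.

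Neuropeptide genes of the central and medial amygdala moved in both directions, with 5 of 22 tested called higher and 3 lower. Counts of higher genes were 2 without prefrontal cortex arrays 27 and 32 and 3 without Ala amygdala arrays 1 and 2. Sst, the gene of somatostatin, a peptide of inhibitory neurons, was at 17.03, 17.49 and 17.78 in the amygdala and at 14.96, 16.45 and 16.97 in the prefrontal cortex. Its difference was 1.14 ± 0.22 (limma adjusted p = 0.00142), and 0.92 without Ala prefrontal cortex array 27, below the size needed for a call. Among the prefrontal cortex arrays its r with the bulb marker mean was below -0.8. Nts, the gene of neurotensin, averaged 6.72 ± 0.85 in the amygdala and 5.18 ± 0.37 in the prefrontal cortex, and rose by 1.55 ± 0.25 against a prefrontal cortex mean below the negative controls. Grp, the gene of gastrin-releasing peptide, rose by 1.53 ± 0.39 with overlap between regions.

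Igf1 and Nmb, which encode a growth factor and neuromedin B, were lower by differences of -1.90 ± 0.28 and -1.82 ± 0.33. Both had r of at least 0.8 with the bulb marker mean. Nmb is on the bulb list and was left out of the mean for its own r. The amygdala means of Nmb and Adcyap1 were below the negative controls. Adcyap1, the gene of the peptide PACAP, was at 5.09, 5.65 and 6.75 in the amygdala and 6.09, 6.83 and 8.01 in the prefrontal cortex. It differed by -1.13 ± 0.24, and by -0.97 without Thr prefrontal cortex array 29, which ended the call.

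Of 28 neuropeptide receptor genes tested, 6 were called higher, among them Trhr and Npy2r, and 3 lower, with a median difference of 0.50. Over all genes tested 1.75% were higher and 2.15% lower. Tacr3, the receptor of neurokinin B, rose by 1.64 ± 0.29 but its prefrontal cortex mean of 4.72 was below the negative controls. Crhr1, the main receptor of corticotropin-releasing hormone, was at 6.51, 7.38 and 8.21 in the amygdala and 8.27, 9.18 and 10.19 in the prefrontal cortex. The highest amygdala array was just under the lowest prefrontal cortex array, and the difference was -1.72 ± 0.25 (limma adjusted p = 8.78e-05).

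Serotonin receptors split by subtype. Of all 12 genes, each of them tested, 4 were called higher and 2 lower in the amygdala, against 1.75% and 2.15% of all genes tested. Htr2c, a Gq-coupled receptor, was at 10.69, 12.78 and 13.14 in the amygdala and 8.85, 10.37 and 11.35 in the prefrontal cortex. The overlap came from Ala amygdala array 1, the array high in striatal markers, and the difference was 2.17 ± 0.32 with it and 2.41 without it. Htr4, which raises cyclic AMP, was at 7.65, 8.81 and 9.99 in the amygdala and 5.46, 6.73 and 7.15 in the prefrontal cortex, and rose by 2.22 ± 0.25 without overlap.

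Htr1b, a presynaptic autoreceptor, rose by 1.42 ± 0.25. Htr7 differed by 1.05 ± 0.18 against a prefrontal cortex mean below the negative controls, and by 0.97 without Ala amygdala array 3 and 0.98 without Ala prefrontal cortex array 28, which ended the call. Htr2a, the cortical receptor on which classical hallucinogens act, was at 9.04, 9.87 and 11.00 in the amygdala and 10.94, 11.48 and 11.79 in the prefrontal cortex. Its ranges overlapped by 1 amygdala array, and the difference was -1.53 ± 0.21 (limma adjusted p = 4.08e-05). It did not follow the bulb markers at r of 0.8, whereas Htr1f, a Gi-coupled receptor (-1.17 ± 0.30), did. With prefrontal cortex arrays 27 and 32 left out, Htr1f differed by -0.98 and was no longer called.

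Receptors for dopamine, noradrenaline and acetylcholine had 3 of 17 tested genes called higher and 3 lower, and 1 higher and 3 lower without prefrontal cortex arrays 27 and 32. Chrm5, a muscarinic receptor gene, was at 3.30, 6.25 and 7.81 in the amygdala and at 3.28, 3.47 and 4.03 in the prefrontal cortex, all of the prefrontal values below the negative controls. It differed by 2.63 ± 0.44. Drd1, the dopamine receptor of direct pathway striatal neurons, differed by 1.37 ± 0.39 with overlap, and by 1.17, not called, without those 2 arrays. The nicotinic subunit genes Chrna3 and Chrnb4 and the muscarinic receptor gene Chrm2 were lower, at -1.52, -1.39 and -1.28, with amygdala means below the negative controls for the nicotinic subunits. Of these 3 genes, Chrnb4 and Chrm2 followed the bulb marker mean. In the cannabinoid system 1 of 9 genes was higher and 1 lower, against 1.75% and 2.15% of all genes, a count too small to describe the list. The lower one was Mgll, which encodes the lipase that breaks down 2-arachidonoylglycerol, at -1.14 ± 0.28.

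For fast inhibition, 5 of 19 tested subunit genes of GABA-A and glycine receptors were called higher, against 1.75% of all genes. The other 14 were not called, and the median difference of the list was 0.38. With prefrontal cortex arrays 27 and 32 left out, 3 were called higher. Gabrb1, a beta subunit, averaged 12.97 ± 0.48 in the amygdala and 11.73 ± 0.38 in the prefrontal cortex, and rose by 1.24 ± 0.20. Gabrq, the theta subunit, was at 4.73, 5.95 and 8.31 in the amygdala and at 4.06, 4.95 and 5.81 in the prefrontal cortex. The 4 Thr amygdala arrays gave its upper values, its prefrontal cortex mean was below the negative controls, and its mean difference was 1.30 ± 0.25.

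For glutamate, 1 of 16 tested ionotropic subunit genes was called higher and 1 lower. Over all genes the shares were 1.75% and 2.15%, so these counts are too small to describe the list. With prefrontal cortex arrays 27 and 32 left out, 2 were higher and 0 lower, and 8 of the 16 had an unadjusted p under 0.05 by limma with all arrays. Grin3a, an NMDA receptor subunit that lowers calcium entry, was at 9.30, 10.07 and 10.34 in the amygdala and 8.24, 8.61 and 8.86 in the prefrontal cortex. It rose by 1.34 ± 0.17 without overlap. Of 13 metabotropic receptor and transport genes, 3 were lower, Grm2 and Grm4 (-1.68 ± 0.28, following the bulb marker mean) among them, and 1 was higher. That gene was Slc17a6, the vesicular glutamate transporter VGLUT2 of subcortical excitatory neurons, at 8.13, 10.13 and 11.47 in the amygdala and 8.06, 8.39 and 9.00 in the prefrontal cortex. Its difference was 1.57 ± 0.26 with overlap at the low end.

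Interneuron genes gave 5 of 25 called higher and 3 lower, and 3 higher and 4 lower without prefrontal cortex arrays 27 and 32. Gad1, an enzyme of GABA synthesis, was at 10.98, 11.70 and 11.97 in the amygdala and 12.66, 13.56 and 14.99 in the prefrontal cortex, without overlap and with a difference of -2.07 ± 0.27. It is also on the bulb list, where most neurons are GABAergic, and followed the mean of the other bulb markers. Lhx6, a transcription factor of interneurons from the medial ganglionic eminence, rose by 1.27 ± 0.18, with a prefrontal cortex mean of 5.43 that was below the negative controls. Nos1, neuronal nitric oxide synthase, rose by 1.31 ± 0.26. Ndnf, a marker of interneurons in the outermost cortical layer, and Calb2, calretinin, differed by -2.22 ± 0.30 and -2.53 ± 0.39, and both followed the bulb marker mean. Calb2 is on the bulb list and was left out of the mean for its own r.

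Among cortical layer genes, Calb1, calbindin, was at 11.57, 12.57 and 13.04 in the amygdala and 9.54, 10.96 and 11.51 in the prefrontal cortex. It rose by 1.77 ± 0.28. Cux2 and Lamp5, genes of upper layer cortical neurons, differed by -1.38 ± 0.30 and -1.61 ± 0.30, and neither followed the bulb markers at r of 0.8. Inhba, an activin subunit, differed by -1.93 ± 0.26, followed the bulb marker mean and had an amygdala mean within the negative control range. Among deep layer genes Crym, which binds thyroid hormone in the cytosol, differed by 1.58 ± 0.42 and Pcp4, a calmodulin regulator, by -1.33 ± 0.24. Crym lost its call (difference 1.27) with prefrontal cortex arrays 27 and 32 left out.

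Calcium-binding proteins were among the lists with the most called members, 6 of 21 higher and 5 lower. Over all genes tested the shares were 1.75% and 2.15%. Hpcal1, a neuronal calcium sensor, was at 14.06, 15.65 and 15.95 in the amygdala and 11.94, 12.93 and 13.57 in the prefrontal cortex, without overlap, and rose by 2.54 ± 0.27. Caln1 and Necab2 rose by 1.57 ± 0.23 and 1.47 ± 0.23. Among the prefrontal cortex arrays Caln1 had r below -0.8 with the bulb marker mean and Necab2 had r above 0.8. Necab3, of the same family as Necab2, differed the other way, by -2.03 ± 0.31, with no overlap between regions.

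Voltage-gated potassium channel genes had 6 of 29 called lower, 3 higher and a median difference of -0.39. Kcnab3, an auxiliary beta subunit, differed by -3.22 ± 0.27, with an amygdala mean of 5.28 that was below the negative controls. Kcnb2, a delayed rectifier, and Kcnip1, which binds Kv4 channels, differed by -2.09 ± 0.28 and -1.51 ± 0.19, and these 3 genes followed the bulb marker mean. Kcnab1, Kcng1 and Kcng3 rose by 1.27, 1.72 and 1.54. Of 26 sodium and calcium channel genes 2 were called lower, against 2.15% of all genes, and the other 24 were not called. Among the 2, Cacng5 differed by -2.56 ± 0.31 and followed the bulb marker mean. Without prefrontal cortex arrays 27 and 32 the count of lower genes was 1, and without Ala amygdala arrays 1 and 2 it was 4.

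Axon guidance and adhesion genes were called in both directions. Of 37 guidance genes 6 were higher and 5 lower, and of 25 cadherins 4 were higher and 3 lower, against 1.75% and 2.15% of all genes. With each array's median subtracted, 3 guidance genes were lower. Unc5d, a netrin receptor of migrating neurons, was at 10.43, 11.99 and 12.43 in the amygdala and 8.82, 9.11 and 9.65 in the prefrontal cortex, and rose by 2.54 ± 0.24 (limma adjusted p = 5.87e-07). The repellent ligands Slit1 and Slit3 rose by 1.87 ± 0.30 and 1.73 ± 0.24, and Plxnc1, a plexin that binds semaphorin 7A, by 1.12 ± 0.16. The semaphorin gene Sema7a itself differed by -1.47 ± 0.21.

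The protocadherins Pcdh19, encoded on the X chromosome, and Pcdh8 rose by 2.00 ± 0.19 and 1.78 ± 0.20, with no overlap in either. Cdh9 rose by 1.31 ± 0.26. Cdh6, a cadherin, was between 8.02 and 8.70 on 7 amygdala arrays, at 11.42 on Ala amygdala array 1, and between 10.80 and 11.31 on prefrontal cortex arrays. Its difference was -2.24 ± 0.34, and -2.64 without that array. Sema3c and Epha3, at -1.61 and -1.52, followed the bulb marker mean.

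**Figure D4:**
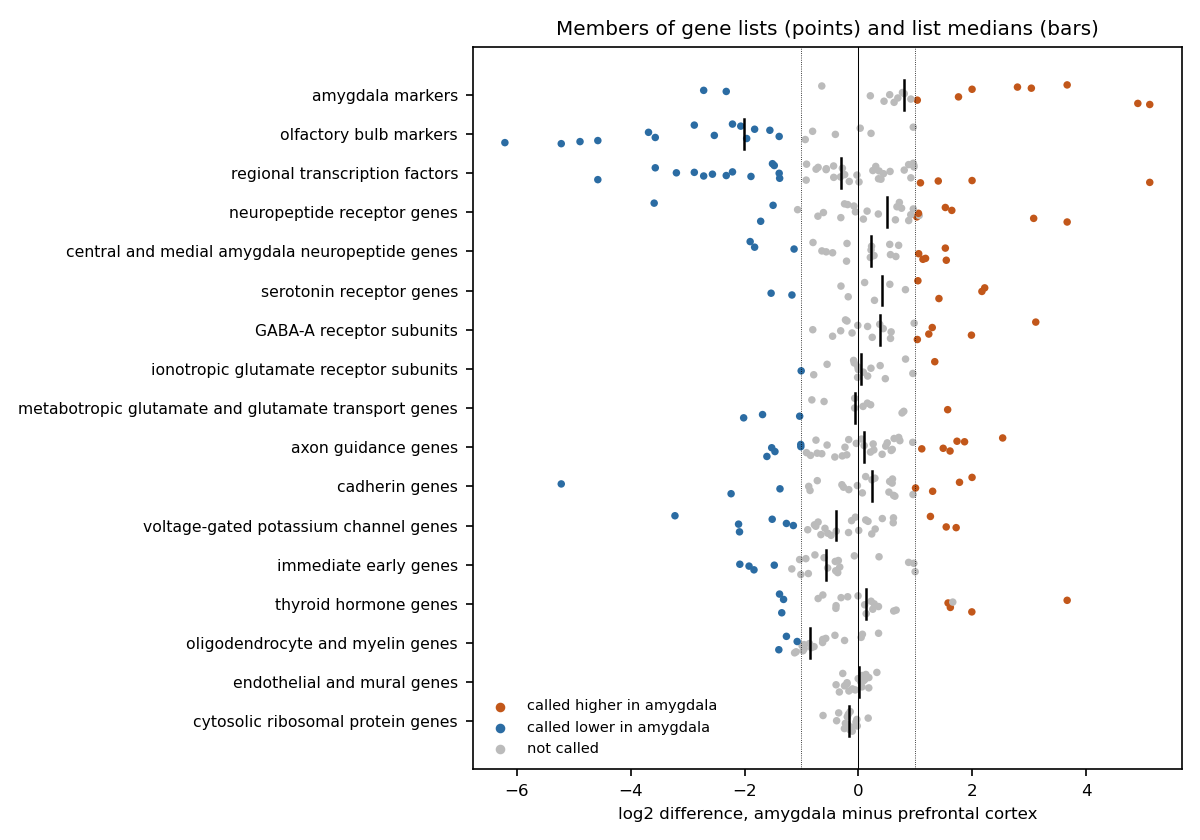
Log2 difference, amygdala minus prefrontal cortex, of every tested member of 17 gene lists, 1 point per gene, in orange where called higher in the amygdala, blue where called lower and grey where not called, with a black bar at the list median. The olfactory bulb markers reach from Th at -6.21 to genes near 0, and the serotonin receptors have members on both sides.

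Immediate early genes, induced by recent neuronal activity, had 4 of 22 called lower in the amygdala, the other 18 not called and a median difference of -0.57. Arc, which shapes synapses, was at 6.23, 7.20 and 8.87 in the amygdala and 6.45, 9.32 and 10.31 in the prefrontal cortex. It differed by -1.92 ± 0.43 (limma adjusted p = 0.00405). Nr4a1 was at 8.31, 9.41 and 10.50 in the amygdala and at 7.98, 11.91 and 12.77 in the prefrontal cortex, and Egr1 averaged 12.39 ± 1.12 in the amygdala and 14.22 ± 1.07 in the prefrontal cortex (SD, n = 8). The low prefrontal value of both Arc and Nr4a1 came from Ala array 26, and without it their differences were -2.32 and -2.63. The fourth gene called lower, Npas4 (-1.48 ± 0.49, adjusted p = 0.0491), lost its call in 20 of 30 other settings, 11 of them leaving out 1 array. With each array's median subtracted, 3 were lower and 1 higher.

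Astrocyte genes had 2 of 22 called higher and 1 lower, and of 16 microglia genes 1 was lower and the other 15 were not called. Over all genes 1.75% were higher and 2.15% lower, so counts of 1 or 2 say little about lists this short. Agt, angiotensinogen, which astrocytes make, was at 8.93, 10.32 and 11.50 in the amygdala and 8.04, 8.56 and 8.89 in the prefrontal cortex, and rose by 1.96 ± 0.23 without overlap. Slc6a11, the GABA transporter GAT-3 of astrocytes, differed by -1.28 ± 0.25 and followed the bulb marker mean. Its difference was -0.98, not called, without prefrontal cortex arrays 27 and 32.

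Oligodendrocyte and myelin genes had 3 of 20 called lower and a median difference of -0.84, one of the 3 being Trf, transferrin (-1.26 ± 0.34). Their mean level was between 8.11 and 10.15 on amygdala arrays, with Ala arrays 1 and 2 and Thr array 5 above the other 5, and between 9.49 and 10.65 on prefrontal cortex arrays. Without Ala amygdala arrays 1 and 2, 14 of the 20 were called lower, and without prefrontal cortex arrays 27 and 32, 5 were. In the extracellular matrix list 3 of 22 were higher (Lamb1, Col25a1 and Sparc). Of 14 meningeal and fibroblast markers 1 was higher and 1 lower, against 1.75% and 2.15% of all genes, too few to describe the list. The higher one, decorin (Dcn), a proteoglycan, averaged 12.74 ± 2.60 in the amygdala and 9.05 ± 1.07 in the prefrontal cortex. It was at 8.79 and 8.87 on Ala array 1 and Thr array 5 and between 12.38 and 15.38 on the other amygdala arrays. The lower one, Islr, differed by -2.67 ± 0.44 and followed the bulb marker mean.

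Several lists gave no call. By limma none of 11 oligodendrocyte precursor, 20 endothelial, 16 ribosomal protein, 20 oxidative phosphorylation or 20 unfolded protein response genes was called, with 6, 1, 1, 7 and 4 of them at an unadjusted p under 0.05. Among all genes tested 3824 had an unadjusted p under 0.05 and 3.9% were called, so lists this short may hold no call in any case. Steroid hormone and stress genes had 2 of 12 called lower, and growth factor genes 4 of 22. The 2 were Crhr1 and the progesterone-reducing enzyme gene Akr1c18 (-3.02 ± 0.35). Akr1c18 followed the bulb marker mean, and its amygdala mean was below the negative controls. Genes of retinoid, Wnt and BMP signalling had 2 of 27 called in each direction, and 1 higher without Ala amygdala arrays 1 and 2. The shares over all genes were 1.75% higher and 2.15% lower.

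Thyroid hormone genes were of interest because the study altered Dio2. Of 23 tested, 4 were called higher (Trhr, Dio3, Rxrg and Crym) and 3 lower (Dio2, Trhde and Kcnj10). Dio2, whose enzyme makes active hormone in astrocytes, was at 7.91, 8.57 and 9.15 in the amygdala and 9.61, 9.96 and 10.16 in the prefrontal cortex. The regions did not overlap, and the difference was -1.35 ± 0.16 (limma adjusted p = 9.09e-06), or -1.14 in the Ala arrays alone and -1.55 in the Thr arrays alone. It did not follow the bulb marker mean among the prefrontal cortex arrays, at 10.01 on Ala array 26 and 9.66 on Ala array 27. Across the other regions its mean was 9.27 in hippocampus, 9.16 in striatum and 8.17 in cerebellum, so the prefrontal cortex had the highest of the 5 means and the amygdala the second lowest.

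Dio3, whose enzyme inactivates thyroid hormone in neurons, was at 3.83, 5.33 and 7.21 in the amygdala and 2.97, 3.15 and 3.74 in the prefrontal cortex. It rose by 1.99 ± 0.33 (limma adjusted p = 0.000253), but both means, 5.24 and 3.25, were below the negative controls. The receptor genes Thra and Thrb had differences of 0.62 ± 0.16 and 0.66 ± 0.23, neither large enough for a call, and that of Thrb also had an adjusted p of 0.0547. The hormone transporter gene Slco1c1, at -0.39 ± 0.10, and Klf9, a gene induced by the hormone, at -0.71 ± 0.17, were not called either. Hr, another induced gene, was below the negative controls in both regions. Rxrg, a retinoid X receptor that pairs with hormone receptors, rose by 1.62 ± 0.20 without overlap, and Trhde, which degrades thyrotropin-releasing hormone, differed by -1.31 ± 0.22. Trhde and Kcnj10, a potassium channel gene of astrocytes (-1.38 ± 0.18), both followed the bulb marker mean at r of 0.8.

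The promoters of Th, Dio2 and Sst are shown because the first 2 genes were lower and the third higher in the amygdala, while all 3 hold the same full cyclic AMP response element, TGACGTCA, near their start. The sequences are from RefSeq on GRCm38.p6, cover the 250 bases before the start of the gene on the minus strand, 5′ to 3′, and have the element in capitals. They lie at chr7:142899996-142900245 (Th), chr12:90739039-90739288 (Dio2) and chr16:23890845-23891094 (Sst).
Th: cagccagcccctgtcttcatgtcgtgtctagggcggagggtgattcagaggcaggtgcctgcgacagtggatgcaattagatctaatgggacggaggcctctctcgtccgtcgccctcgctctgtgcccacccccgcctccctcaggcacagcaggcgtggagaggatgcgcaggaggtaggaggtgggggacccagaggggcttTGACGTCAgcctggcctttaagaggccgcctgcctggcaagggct
Dio2: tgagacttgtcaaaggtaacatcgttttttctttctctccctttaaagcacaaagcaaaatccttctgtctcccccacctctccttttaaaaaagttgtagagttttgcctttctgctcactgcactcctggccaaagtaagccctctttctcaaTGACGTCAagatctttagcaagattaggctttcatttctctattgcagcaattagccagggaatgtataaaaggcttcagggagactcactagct
Sst: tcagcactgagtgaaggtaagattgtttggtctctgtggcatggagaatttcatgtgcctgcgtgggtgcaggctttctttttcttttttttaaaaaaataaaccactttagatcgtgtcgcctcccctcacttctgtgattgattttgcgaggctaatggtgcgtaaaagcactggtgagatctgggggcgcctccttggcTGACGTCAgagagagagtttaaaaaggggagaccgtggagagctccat
The element starts 45, 95 and 48 bases before the start of Th, Dio2 and Sst. It reads the same on both strands. In windows of 300 bases (250 before to 50 after the start) it was found in 549 of 27025 genes (2.03%) and in 372 of 11830 tested genes (3.14%). It was present in 4 of 204 genes called higher with a window (1.96%) and in 10 of 236 called lower (4.24%). A match is a description of these letters only.

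Placing both regions among all 5 gave an order of levels for the called genes. Of the 256 genes called higher, 146 had their highest mean in the amygdala, 52 in the hippocampus, 32 in the striatum and 26 in the cerebellum. Of the 315 called lower, 206 were highest in the prefrontal cortex, 62 in the cerebellum, 38 in the striatum and 9 in the hippocampus. A gene called higher cannot have its highest mean in the prefrontal cortex, nor one called lower in the amygdala. These counts are therefore partly fixed by the calls, and the shares over all genes tested are not given here. Nr2f2 averaged 10.06 ± 0.45 in the hippocampus, 9.47 ± 0.39 in the cerebellum and 7.91 ± 0.78 in the striatum (SD, n = 8), all below its amygdala mean of 13.93 ± 1.19. Ecel1 was instead highest in the striatum, at 10.20, and Npy2r in the hippocampus, at 10.55. Cdhr1 averaged between 3.75 and 5.19 in the other 3 regions, so its level stood out in the prefrontal cortex arrays alone among the 5 regions.

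In 1 fit of all 40 arrays, 576 of 15587 genes were called between amygdala and prefrontal cortex, the fewest of the 10 region pairs. The amygdala and the hippocampus differed in 717 genes and the prefrontal cortex and the hippocampus in 934, while the striatum and the cerebellum differed in 3204. The pairs share arrays, and differences between these counts were not tested.

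The region difference was then taken in each genotype apart, in fits that share no array. In the Ala arrays 111 genes (0.757%) were called higher and 161 (1.1%) lower in the amygdala, and in the Thr arrays 329 (2.24%) and 348 (2.37%). All 272 genes called in the Ala arrays had the same sign in the Thr arrays, and 664 of the 677 called in the Thr arrays (98.1%) had it in the Ala arrays, against 68.6% of all genes tested. Called in both were 239 genes, 87.9% of the Ala calls and 35.3% of the Thr calls. Ala counts depended on single arrays: they were 253 higher and 321 lower without amygdala array 1, but 42 and 70 without amygdala array 3, 55 and 76 without amygdala array 4, 36 and 53 without prefrontal cortex array 25, and 55 higher without prefrontal cortex array 27.

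**Figure D5:**
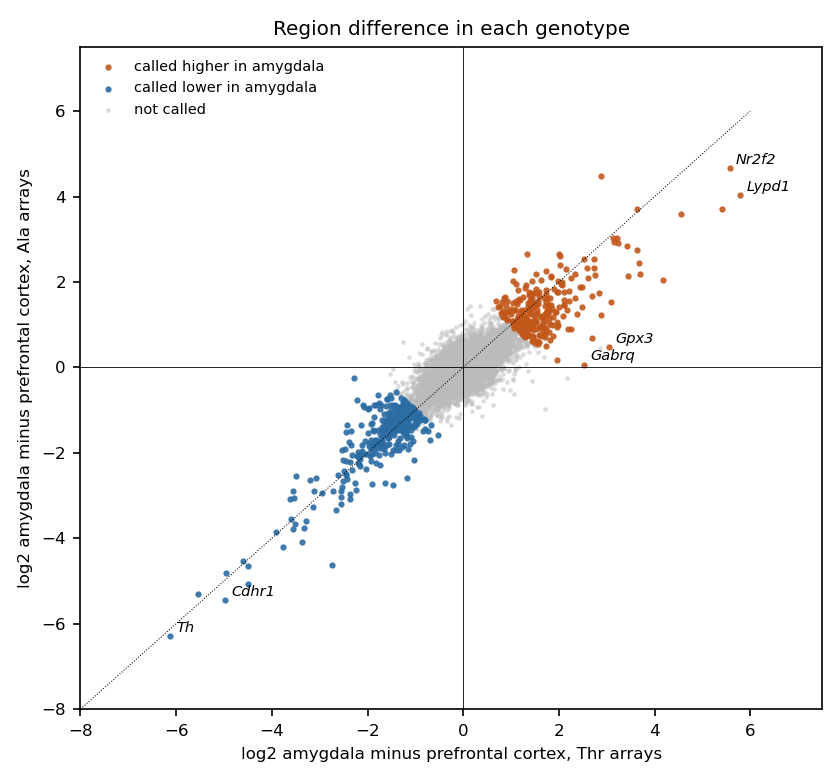
Log2 difference, amygdala minus prefrontal cortex, in the Ala arrays (vertical) against that in the Thr arrays (horizontal) for every gene tested, coloured by the call in all 16 arrays, with a dotted line of equal differences. Th and Cdhr1 lie near that line, while Lypd1, Gpx3 and Gabrq lie below it.

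The test of whether the region difference depended on genotype gave no call. By limma none of the 14658 interaction terms passed (0%), 499 genes (3.4%) had an unadjusted p under 0.05, and the smallest adjusted p was 0.263, for Gpx3. Gpx3, a secreted glutathione peroxidase, averaged 8.21 ± 0.33 in Ala amygdala and 7.75 ± 0.29 in Ala prefrontal cortex, and 10.97 ± 0.86 in Thr amygdala and 7.92 ± 0.49 in Thr prefrontal cortex (SD, n = 4). The region difference was 0.47 in Ala and 3.06 in Thr, an interaction of -2.59 ± 0.46. Gabrq had region differences of 0.07 in Ala and 2.53 in Thr, an interaction of -2.46 ± 0.49. Without Thr amygdala array 5 both passed, with adjusted p of 0.0265 and 0.0460. Gabrq is on the list of hypothalamus markers. The mean of that list, Gabrq included, was 5.67 to 6.13 on Thr amygdala arrays and 5.10 to 5.50 on Ala amygdala arrays. The part of such tissue differences in the interaction was not tested. The next 3 genes by p, Oas1f, Stfa3 and Cyp3a11, were below the negative controls in both regions.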

How the data were processed

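RNA from 5 brain regions was hybridised to Affymetrix arrays. The values are deposited log2 signals, which the authors made with RMA (per the submitters' processing notes). Its version is not given in the sources used here. No scaling was added, and each column was used under its labelled sample. Of 28846 rows, 6640 were controls, 19572 had a gene symbol in the platform annotation, all of which matched the GRCm38.p6 gene table, and 2634 transcript rows had none. For 55 genes with several rows the row with the highest mean was kept.

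A gene was kept if 4 or more of the 16 arrays exceeded log2 4.42, the percentile 30 of the signals. Kept genes were tested with limma 3.58.1 in R 4.3.3 (lmFit, eBayes with trend), as 4 group means with 12 residual degrees of freedom. Adjusted p-values are Benjamini-Hochberg over all 14658 genes. The members and lists were chosen with earlier results of these data known. The 40 lists hold 795 genes, 677 of them tested. Named genes are the 12 largest differences per direction without overlap between regions and without clone names, up to 4 called members per list and direction, Dio2 and other thyroid hormone genes, the smallest interaction p-values, and the 5 smallest p per direction among genes above 8 in both regions. On simulated data with the real means, 88% of genes changed by 1 and 26% of those changed by 0.5 passed the adjusted p, of 50 each. A call also needs a difference of at least 1, so these are not the shares that would be called. The simulated noise was independent between genes, without the tissue differences between single arrays seen here.

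Alternatives covered scaling, filters, spread, array weights, thresholds and arrays left out. No batch is labelled, and no 2 arrays were identical.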

Additional observations from a re-analysis of the deposited data

Results flagged for a closer look

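On 636 sets of 4 arrays (142 genes and 17 marker lists, 4 groups each), 36 (5.66%) had 1 array further from the other 3 than Dixon's 95% critical value for 4 samples allows. Chance alone flags about 1 in 20 such groups. Each value below is the log2 signal on the array that stood apart, followed by the range of the other 3 arrays of its group. No cause was tested.

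Ala amygdala array 1 stood apart with Aloxe3 at 8.44 (10.73 to 11.10), Pcp4l1 at 10.45 (8.58 to 8.86), Tac1 at 13.45 (10.23 to 10.71) and Nmbr at 6.53 (7.44 to 7.54). It also had Agt at 8.93 (10.18 to 10.37), Htr1f at 8.98 (6.92 to 7.19), Mgll at 12.08 (9.62 to 10.03) and Sema7a at 10.16 (8.37 to 8.64). It also had Cdh6 at 11.42 (8.02 to 8.39) and mean of striatal medium spiny neuron markers at 11.24 (8.39 to 8.49). Ala amygdala array 3 stood apart with Tenm3 at 9.65 (10.42 to 10.56). Ala amygdala array 2 stood apart with Dcx at 8.81 (9.26 to 9.34), Stfa3 at 4.91 (4.44 to 4.51), mean of hippocampus markers at 9.55 (8.22 to 8.35) and mean of astrocyte genes at 11.25 (10.86 to 10.92). Ala amygdala array 4 stood apart with mean of cortical interneuron genes at 9.45 (9.77 to 9.80). Thr amygdala array 5 stood apart with Vipr2 at 4.71 (5.34 to 5.42), Calb2 at 9.88 (11.28 to 11.51), Dio3 at 4.08 (5.23 to 5.42) and Unc5d at 11.11 (12.08 to 12.17). It also had Pcdh8 at 8.63 (9.66 to 9.77). Thr amygdala array 7 stood apart with Pcp4l1 at 8.41 (9.07 to 9.19) and Gad1 at 10.98 (11.82 to 11.97). Thr amygdala array 6 stood apart with Tshz1 at 9.86 (8.93 to 9.07) and Arc at 6.77 (7.20 to 7.20). Thr amygdala array 8 stood apart with mean of choroid plexus markers at 5.63 (6.04 to 6.12). Ala prefrontal cortex array 27 stood apart with Tacr3 at 4.93 (4.76 to 4.78) and Epha3 at 10.49 (8.71 to 9.01). Ala prefrontal cortex array 26 stood apart with Nr4a1 at 7.98 (12.13 to 12.77) and mean of microglia and macrophage genes at 7.84 (7.69 to 7.71). Ala prefrontal cortex array 28 stood apart with Gpx3 at 8.18 (7.59 to 7.63) and mean of meninges and fibroblast markers at 6.44 (7.73 to 7.98). Thr prefrontal cortex array 29 stood apart with Myl4 at 9.57 (8.13 to 8.23), Gabra2 at 12.07 (12.52 to 12.60) and Thra at 15.00 (14.15 to 14.28). Thr prefrontal cortex array 30 stood apart with Mgll at 10.33 (11.46 to 11.59).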

How the results depend on the processing

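No paired analysis was possible because the replicate numbers in the labels are unique to each array and no number is shared between groups. With the adjusted p alone, 1035 genes were higher and 1059 lower in the amygdala. With a difference of at least 2, 36 were higher and 70 lower. Leaving out 1 array at a time gave 234 to 293 higher and 300 to 371 lower, with 521 to 557 of the 571 calls shared and all 571 keeping their sign. The Ala arrays alone gave 36 to 253 higher and 53 to 321 lower, or 177 and 244 in the fit of 16 arrays, and the Thr arrays alone 288 to 425 and 315 to 423. The interaction gave 0 to 2 calls, the 2 being Gpx3 and Gabrq without Thr amygdala array 5. Subtracting each array's median gave 571 calls, 48.2% of them higher, and quantile normalization 573 and 47.3%, against 44.8% as reported. A stricter filter gave 535 calls, robust spread 547, array weights 591 and all 40 arrays 576. Leaving out Ala amygdala arrays 1 and 2 gave 687 (539 shared), and prefrontal cortex arrays 27 and 32, chosen once the data had been seen, 533 (492 shared). Of 4252 values for 142 genes, 4028 kept direction and call, 221 lost the call, 3 gained it and 0 reversed. Settings that change only the spread or the thresholds leave a difference as it was and cannot reverse it. A needed difference of at least 2 removes every smaller call by definition. The gains, of Thra, Slco1c1 and Klf9, came with the adjusted p alone. The tally is therefore partly fixed in advance. Levels in or below the negative control range bound a difference only loosely.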
